A study of Mus musculus with 7 samples.

Results

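The miR-29 family of mouse kidney was examined on 7 microarrays through its 3 mature members, miR-29a, miR-29b and miR-29c. The members were chosen by name, as the miRNAs listed on the array exactly as mmu-miR-29a, mmu-miR-29b or mmu-miR-29c, and they are 3 of the 696 mouse miRNAs on the array. Total RNA came from kidneys of male C57BL/6 mice, 9 to 12 weeks of age, collected at day 28 after surgery under pentobarbital anaesthesia, in which the left ureter was either tied off (unilateral ureteral obstruction, UUO, a model of kidney fibrosis) or only exposed (sham). Agilent miRNA arrays with a single dye, Cy3, were used. By their group label, 3 arrays are treated and 4 non-treated, called the treated-label and the non-treated-label arrays here. No genetic modification is stated for either group. The deposited record does not say which label stands for the tied ureter. The study lists miR-29b and miR-29c with the opposite sign to the one obtained here from the labels. The same holds for miR-192, miR-30c, miR-21 and miR-214, named below. The study's signs would make the non-treated-label arrays the obstructed ones, but no label states this. Every direction below therefore runs from the non-treated label to the treated label. The study describes groups of separate mice, but nothing in the labels ties an array to an animal, so p-values measure the spread between these arrays.

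MiRNAs are short RNAs that guide the silencing machinery to messenger RNAs carrying a match to the seed, the bases near the 5′ end of the miRNA. The miR-29 family is known for repressing collagens, elastin, fibrillin and other proteins of the extracellular matrix, and in many organs a loss of miR-29 goes together with fibrosis. TGF-beta, a central growth factor of fibrosis, is known to lower miR-29 in kidney cells. No messenger RNA or protein was measured on these arrays.

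The mature sequences are shown because they carry the identity of the family and the small differences that the probes must resolve. Bases 2 to 8, the seed, are in capitals, and sequences run 5′ to 3′, from RefSeq on GRCm38.p6.
miR-29a: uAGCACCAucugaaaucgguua
miR-29b: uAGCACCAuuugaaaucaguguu
miR-29c: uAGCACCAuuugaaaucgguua
All 3 members matched a mature entry, under the current names ending in -3p. Of 1738 mature entries in the RefSeq table, 4 hold this seed, and they bear only the 3 names of the members, since miR-29b is listed at both of its loci. Counted from the 5′ end without gaps, miR-29c differs from miR-29a at 1 of 22 positions, C10U. MiR-29b differs from miR-29a at 4 of 22 positions, C10U, G18A, U21G and A22U, and from miR-29c at 3, G18A, U21G and A22U. The extent to which a probe for one member also binds another was not tested.

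The 3 members come from 4 hairpin precursors at 2 places in the genome, shown here with the mature -3p strand in capitals because the locus of origin is what the later comparison of strands turns on.
Mir29a: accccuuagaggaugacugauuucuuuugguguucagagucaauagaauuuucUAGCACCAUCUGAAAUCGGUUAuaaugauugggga
Mir29b-1: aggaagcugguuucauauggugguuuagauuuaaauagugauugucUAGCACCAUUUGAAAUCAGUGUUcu
Mir29b-2: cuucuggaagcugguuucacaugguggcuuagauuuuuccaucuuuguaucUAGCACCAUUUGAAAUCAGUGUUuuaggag
Mir29c: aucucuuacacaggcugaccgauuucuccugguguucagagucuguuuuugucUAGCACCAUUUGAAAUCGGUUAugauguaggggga
Mir29a lies at chr6:31062660-31062747 and Mir29b-1 at chr6:31063023-31063093, both on the minus strand and separated by 275 bases, and no other gene of the RefSeq table overlaps them. Mir29b-2 lies at chr1:195037040-195037120 and Mir29c at chr1:195037547-195037634, both on the plus strand, separated by 426 bases and inside the span of the long non-coding RNA A330023F24Rik (chr1:195017399-195037908). MiR-29a is therefore made from chromosome 6 and miR-29c from chromosome 1, while the same mature miR-29b can come from either.

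The deposited values are background-subtracted spot intensities of the scanner software, not normalized between arrays. Spots were averaged per probe and summed per miRNA. For scaling, the log2 signals of the 186 miRNAs detected on every array were averaged. This average was 7.24 ± 0.40 (SD, n = 4) on the non-treated-label arrays and 6.09 ± 0.32 (SD, n = 3) on the treated-label arrays, and the scaling sets it equal on all arrays. Detection calls of the software covered 232 to 282 miRNAs per non-treated-label array and 193 to 214 per treated-label array. Non-treated replicate 3 stood apart within its group, with a mean log2 signal of 6.65 against 7.40 to 7.52 on the other 3, and results without it are given where they differ. Arrays of a group correlated at Pearson's r of at least 0.990 across miRNAs, and arrays of different groups at no more than 0.918. All arrays shared 1 slide and 1 scan date.

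All 3 members were detected on all 7 arrays. MiR-29c and miR-29b were higher on the treated-label arrays, by 2.81-fold and 2.26-fold, whereas miR-29a differed by 1.21-fold and did not pass the test. The test was limma's moderated test over the 236 miRNAs that all arrays of one label or the other detected, with Benjamini-Hochberg adjusted p below 0.01. It called 2 of the 3 members, against 60.6% of all miRNAs tested, and both as higher, against 25.8% of all miRNAs called higher and 34.7% called lower. Among the 186 miRNAs detected on all arrays, as the members were, 111 were called, 55 higher and 56 lower. A count of 2 in 3 is near either background.

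MiR-29c, the member made only from the chromosome 1 locus, had scaled log2 signals of 8.91, 8.89, 8.74 and 8.91 on non-treated replicates 1 to 4. On treated replicates 1, 3 and 4 it had 10.28, 10.39 and 10.40. Every treated-label array lay above every non-treated-label array, with a gap of 1.36 on the log2 scale between the groups. The means were 8.86 ± 0.083 (SD, n = 4) and 10.35 ± 0.068 (SD, n = 3), and the log2 fold change was 1.49 (standard error 0.083, 95% confidence interval 1.30 to 1.68, limma adjusted p = 1.31e-06). Ordered by p, miR-29c stood 15th of 236, and ordered by log2 fold change it stood 23rd from the highest.

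MiR-29b, the member with a precursor at both loci, had scaled log2 signals of 9.13, 9.28, 9.08 and 9.56 on the non-treated-label arrays. It had 10.43, 10.45 and 10.43 on the treated-label arrays. The groups did not overlap, with a gap of 0.87, and the non-treated-label arrays were the more spread. The means were 9.26 ± 0.21 (SD, n = 4) and 10.44 ± 0.016 (SD, n = 3). The log2 fold change was 1.18 (standard error 0.12, 95% confidence interval 0.90 to 1.45, limma adjusted p = 3.99e-05), which is 32nd from the highest.

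MiR-29a, the member made only from the chromosome 6 locus, had scaled log2 signals of 11.20, 11.12, 10.6 and 11.13 on the non-treated-label arrays. It had 11.22, 11.30 and 11.36 on the treated-label arrays. The groups did not overlap, but the gap was 0.020, and non-treated replicate 3 lay well below the other arrays of its label. Groups that do not overlap were common, at 71.6% of the miRNAs tested. The means were 11.01 ± 0.28 (SD, n = 4) and 11.29 ± 0.068 (SD, n = 3). The log2 fold change of miR-29a was 0.28 (standard error 0.15, limma adjusted p = 0.126), with a 95% confidence interval from -0.06 to 0.62, or from 0.958-fold to 1.54-fold. Without non-treated replicate 3 it was 0.12 (limma adjusted p = 0.186). An exact 2-sided permutation test over the arrays gave p = 0.0571 for each of the 3 members, the smallest that 3 arrays against 4 allow, so that this test cannot pass 0.05 here.

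**Figure D1:**
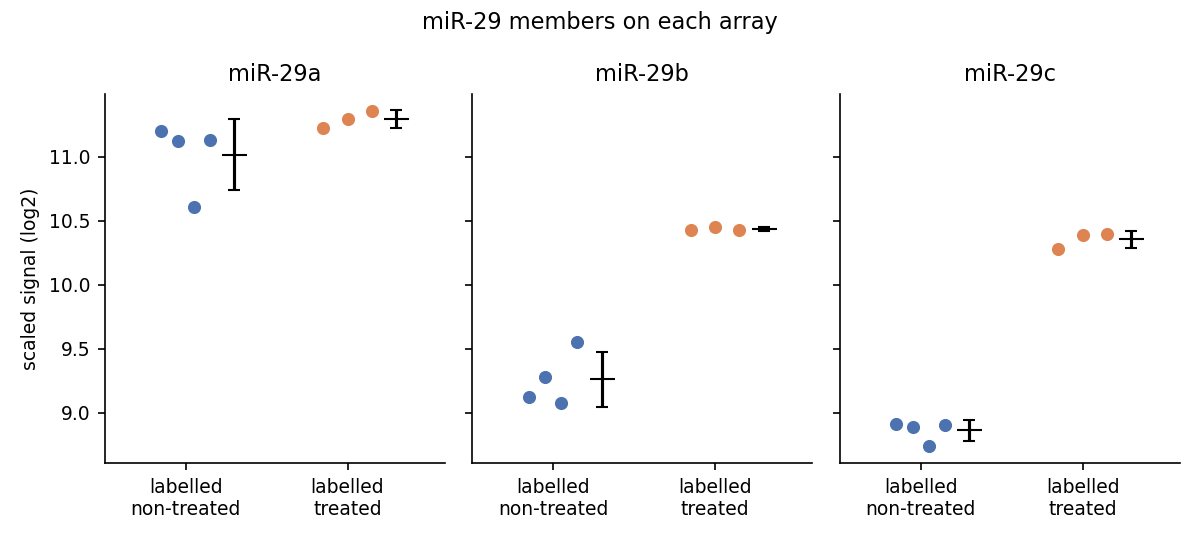
Scaled log2 signal of miR-29a, miR-29b and miR-29c (y axis) on the 4 non-treated-label arrays and the 3 treated-label arrays (x axis), 1 point per array in order of replicate number, with the mean and SD beside them. MiR-29b and miR-29c are separated by gaps of 0.87 and 1.36, and miR-29a by 0.020. Levels of different miRNAs cannot be set against each other, since each probe binds with its own strength.

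Seen without any scaling, the members parted in another way. The summed signal of miR-29c was 756, 811, 400 and 757 on the non-treated-label arrays and 763, 1074 and 694 on the treated-label arrays. Apart from the low value on non-treated replicate 3 and the high one on treated replicate 3, miR-29c thus lay between 694 and 811 in both groups. The summed signal of miR-29b was 877, 1063, 507 and 1186 on the non-treated-label arrays and 848, 1122 and 708 on the treated-label arrays, which also overlap. The summed signal of miR-29a was 3701, 3809, 1458 and 3524 on the non-treated-label arrays and 1470, 2013 and 1353 on the treated-label arrays, so that only non-treated replicate 3 fell among the treated arrays. Unscaled, the log2 fold change was 0.34 for miR-29c (limma adjusted p = 0.337), 0.019 for miR-29b (limma adjusted p = 0.957) and -0.88 for miR-29a (limma adjusted p = 0.00993). At the same time the median over all 236 miRNAs was -1.22, against -0.13 after scaling.

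The direction of miR-29a therefore depended on the scaling. It was positive with 3 of the 7 scalings, at 0.28 with the scaling described, at 0.03 with a scaling on the 75th percentile of those same 186 miRNAs, and at 0.53 with one on the 75th percentile of all miRNAs. It was negative where the average ran over all miRNAs, at -0.23, with quantile normalization, at -0.10, with spike-in controls, at -0.68, and without scaling. MiR-29b and miR-29c stayed above 0 under all 7, but without scaling and with spike-in controls neither passed the threshold. The changes of miR-29b and miR-29c that the study lists are larger in size than under any of the 7. The 7 may therefore not cover the study's own scaling, and the study lists no value for miR-29a. Against the median of all miRNAs tested, miR-29c stood 1.62 higher, miR-29b 1.30 higher and miR-29a 0.41 higher on the log2 scale, and these distances ranged from 1.45 to 1.62, from 1.19 to 1.30 and from -0.09 to 0.41 under the 7 scalings. Scaling by a single factor per array leaves these distances as they are, apart from effects of the floor set under low signals. The lowest values came with quantile normalization, which uses no such factor. With normexp background correction in place of the deposited subtraction they were lower still, at 0.61, 0.33 and -0.50. That correction adds an offset of 50, which by itself draws changes of low signals toward 0. The balance of all calls moved as well, from 61 higher and 82 lower after scaling to 8 higher and 167 lower without it.

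**Figure D2:**
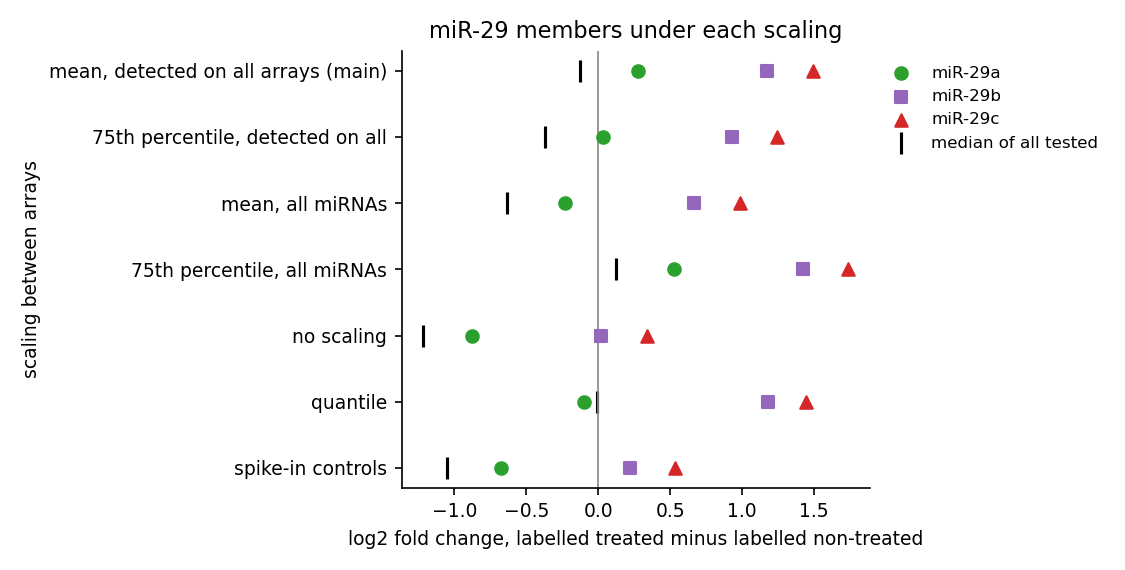
Log2 fold change (x axis, labelled treated minus labelled non-treated) of the 3 members under 7 scalings between arrays (y axis), with the median of all miRNAs tested as a black bar. A single factor per array moves all 3 members alike, so only quantile normalization could change their order, and there it stayed the same. MiR-29a lies above 0 in 3 of the lines and below it in 4.

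**Figure D3:**
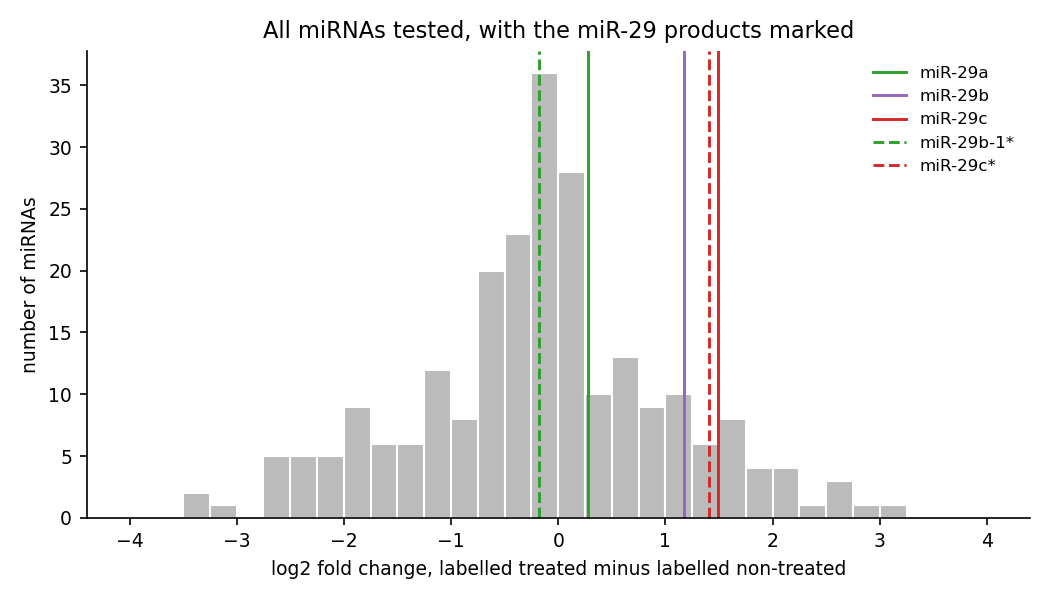
Histogram of the log2 fold changes of all 236 miRNAs tested (x axis, in bins of 0.25; y axis, number of miRNAs), with lines for the 3 members (solid) and for the star strands miR-29b-1* and miR-29c* (dashed). MiR-29c at 1.49 and miR-29c* at 1.41 lie near each other to the right, miR-29b at 1.18 beside them, and miR-29a at 0.28 and miR-29b-1* at -0.18 near the middle.

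Whether the members changed unequally can be asked without any scaling by a single factor, because such a factor cancels in the ratio of 2 members on the same array. The log2 ratio of miR-29c over miR-29a was -2.29, -2.23, -1.87 and -2.22 on the non-treated-label arrays. On the treated-label arrays it was -0.95, -0.91 and -0.96. The ratio was higher on every treated-label array, by 1.21 on the log2 scale or 2.32-fold. The sign of the ratio itself has no meaning, since the probes differ.

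The log2 ratio of miR-29b over miR-29a was -2.08, -1.84, -1.52 and -1.57 on the non-treated-label arrays and -0.79, -0.84 and -0.93 on the treated-label arrays. It was higher on every treated-label array, by 0.90 or 1.86-fold. The log2 ratio of miR-29c over miR-29b was -0.21, -0.39, -0.34 and -0.65 on the non-treated-label arrays and -0.15, -0.06 and -0.03 on the treated-label arrays. This difference of 0.32 was the smallest of the 3, with non-treated replicate 1 at -0.21 next to treated replicate 1 at -0.15. Groups that do not overlap were common among single miRNAs, at 71.6% of those tested. The share among ratios of other miRNAs was not counted, so the lack of overlap is not particular to these pairs. Each of the 3 pairs gave p = 0.0571 by an exact 2-sided permutation test, and 0.0571 after Benjamini-Hochberg adjustment over the 3 pairs, again the smallest value possible. Under 14 alternatives for each pair, the differences ranged from 1.10 to 1.31 for miR-29c over miR-29a, from 0.79 to 0.97 for miR-29b over miR-29a and from 0.22 to 0.38 for miR-29c over miR-29b. Not all 14 are separate checks. The scanner software's own total signal per miRNA gave the same ratios as the summed signal. The replicate block gave the same differences as leaving out non-treated replicate 2. For miR-29c over miR-29b the groups overlapped in the deposited table, with p = 0.4 by the exact permutation test, and p = 0.533 without its column of error estimates.

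**Figure D4:**
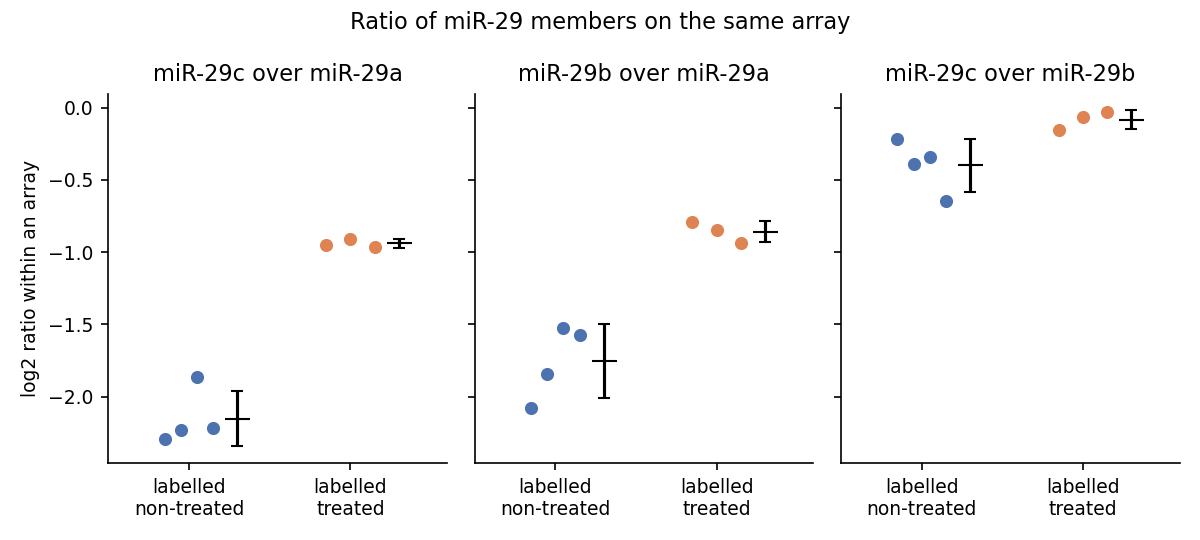
Log2 ratio of 2 members on the same array (y axis) for the 3 pairs, on the non-treated-label and treated-label arrays (x axis), 1 point per array, with the mean and SD beside them. The groups are apart by 1.21 and 0.90 on average in the ratios over miR-29a and by 0.32 in the ratio of miR-29c over miR-29b.

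Each member is read by 2 probes with 10 spots each, of which 6 at the fewest remained after outlier spots were left out. The spots of one probe on one array had an SD of 1.43% to 27.0% of their mean. The probes of a member gave like values. The log2 fold changes of the probes of miR-29c, A_54_P2492 and A_54_P2493, were 1.52 (standard error 0.084) and 1.47 (standard error 0.10). Those of miR-29b, A_54_P1011 and A_54_P1012, were 1.15 (standard error 0.13) and 1.18 (standard error 0.12). Those of miR-29a, A_54_P2488 and A_54_P2489, were 0.23 (standard error 0.12, limma adjusted p = 0.123) and 0.30 (standard error 0.15, limma adjusted p = 0.107). All 4 probes of miR-29b and miR-29c passed the threshold in a limma fit over 371 probes, in which 58.8% passed, and neither probe of miR-29a did.

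The star strands, cut from the other arm of the hairpins and usually degraded, tell the loci apart where the mature strands cannot. Those on the array are printed with bases 2 to 8 in capitals, which differ from the seed of the members.
miR-29a*: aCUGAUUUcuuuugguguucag
miR-29b-1*: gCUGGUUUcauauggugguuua
miR-29c*: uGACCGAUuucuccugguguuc
All 3 matched RefSeq, under the names ending in -5p. MiR-29a* was not detected on any array. The star strand of Mir29b-2 was not analysed here.

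MiR-29c*, from the chromosome 1 locus, was dim but detected on all 7 arrays. Its scaled log2 signals were 3.32, 3.40, 3.50 and 3.46 on the non-treated-label arrays and 4.88, 4.75 and 4.86 on the treated-label arrays. The groups were separated by 1.25, and the log2 fold change of miR-29c* came to 1.41 (standard error 0.082, limma adjusted p = 1.59e-06), beside 1.49 for miR-29c from the other arm of the same hairpin. With normexp background correction on median signals these were 0.39 and 0.82. The offset of 50 added there is larger than the summed signals of miR-29c*, 10.6 to 21.5, and so shrinks its change by construction. The log2 ratio of miR-29c* over miR-29c was -5.44 ± 0.15 (SD, n = 4) on the non-treated-label arrays and -5.53 ± 0.12 (SD, n = 3) on the treated-label arrays, a difference of -0.08 that is smaller than the spread between arrays.

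MiR-29b-1*, from the chromosome 6 locus, was called detected on all 4 non-treated-label arrays and on 1 of the 3 treated-label arrays. Its scaled log2 signals were 2.78, 3.08, 2.93 and 2.61 on the non-treated-label arrays and 2.93, 2.69 and 2.40 on the treated-label arrays, which overlap. Its log2 fold change of -0.18 did not pass the test (standard error 0.15, limma adjusted p = 0.332), with a 95% confidence interval from -0.53 to 0.17. Only 1 of its 4 probes was above background, and the sign of the change differed between alternatives. It was tested because the arrays of one label detected it, those on which it had the higher mean, so its value says little about the chromosome 6 locus. After the scaling described, miR-29c and miR-29c*, found only on chromosome 1, were called higher, beside 25.8% of all miRNAs tested. MiR-29a, found only on chromosome 6, was not called. Without scaling, miR-29c at 0.34 and miR-29c* at 0.25 were not called. MiR-29a at -0.88 and miR-29b-1* at -1.22 (limma adjusted p = 0.000387) were then called lower, as were 167 of the 236 miRNAs tested. The median of all was -1.22, so these calls say nothing particular about chromosome 6. MiR-29b, with precursors at both places, had a log2 fold change between those of miR-29a and miR-29c with this scaling and without it. That order was fixed between the 2, since a single factor per array moves all members alike.

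**Figure D5:**
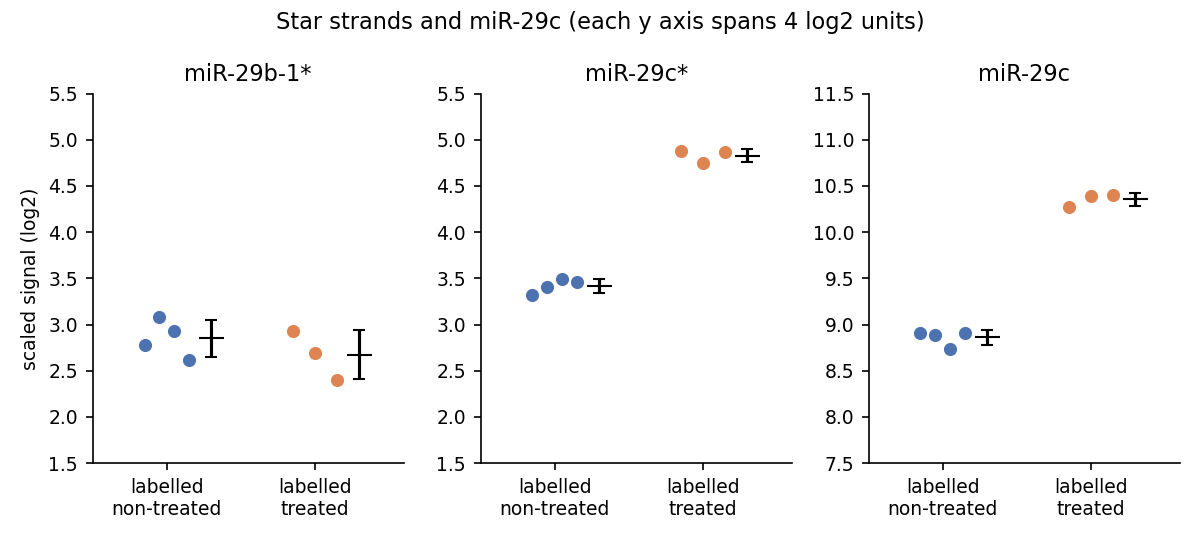
Scaled log2 signal (y axis, each spanning 4 log2 units) of the star strands miR-29b-1* and miR-29c* and of miR-29c on the non-treated-label and treated-label arrays (x axis), 1 point per array, with the mean and SD beside them. MiR-29c* and miR-29c are 1.41 and 1.49 higher on the treated-label arrays, and the groups of miR-29b-1* overlap.

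The miRNAs most alike to each member over the 7 arrays were taken from the other 183 detected on all arrays, as a description that mostly follows the difference between the groups. For miR-29c these were miR-185, miR-107 and miR-193, with Pearson's r of 0.997, 0.995 and 0.995. For miR-29b they were miR-378*, let-7g and miR-107, with r of 0.987, 0.985 and 0.981. For miR-29a they were miR-425, miR-203 and miR-494, with r of 0.947, 0.842 and 0.792. The values of r were lowest for miR-29a, and miR-107 was near both miR-29b and miR-29c.

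A list of other miRNAs linked to TGF-beta and matrix held calls in both directions, as all miRNAs did. Of its 25 miRNAs, all were on the array and 19 were tested. Of these 19, 7 were called higher on the treated-label arrays and 6 lower, beside 25.8% and 34.7% of all miRNAs tested. Whether the list differs from all miRNAs was not tested. The examples that follow were picked after their values were seen. Among those called higher were miR-192, a miRNA abundant in kidney tubules, with a log2 fold change of 3.24, and miR-30c at 1.61. Among those called lower were miR-21, known for its rise in fibrosis of many organs, at -2.18, and miR-214, a miRNA of mesenchymal cells, at -2.51. The median log2 fold change of the list was -0.05, against 1.18 for the members and -0.13 for all miRNAs tested. Without scaling, 2 of the list were called higher and 11 lower.

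MiRNAs that mark cell types of the kidney moved with the same labels. The counts below stand beside 25.8% called higher and 34.7% called lower among all 236 miRNAs tested. Without scaling, 8 of the 236 were called higher and 167 lower. Of 10 miRNAs of tubule and kidney epithelium, all detected, 6 were called higher and 1 lower, but without scaling 2 were called higher and 3 lower. Their summed scaled signal was 4238 to 5035 on the non-treated-label arrays and 9327 to 9711 on the treated-label arrays. Of 5 miRNAs of mesenchyme and smooth muscle all were lower, with sums of 2530 to 2867 and 574 to 589. Of 5 miRNAs of leukocytes all were lower too, with sums of 1354 to 1720 and 322 to 336, and all 5 of both lists were called lower under each of the 7 scalings. Both measured miRNAs of red cells, of a list of 3, were higher, with sums of 1079 to 2329 and 4615 to 5118, and 1 of them was called higher without scaling. Of 5 miRNAs of other tissues, the liver miRNA miR-122 and the neuronal miR-124 were not detected on any array. MiR-375, of endocrine cells, was called lower at -1.20. It was detected only on the 4 non-treated-label arrays and was tested for that reason, which favours a call as lower. The muscle miRNA miR-1 had a log2 fold change of -0.72 (limma adjusted p = 0.0427), and miR-133a was detected on 3 arrays and not tested. The sums over the list were 21.5 to 44.9 and 15.1 to 17.7. The part of cell composition in the values of miR-29 was not tested, and in whole kidney RNA fewer cells of a type and less RNA per cell cannot be told apart.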

How the data were processed

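Kidney RNA was measured on 7 1-colour Agilent miRNA arrays. For the RNA of these arrays the labels name the RecoverAll kit, whereas the study's methods name the miRNeasy kit for tissue and RecoverAll for fixed human kidney. The authors scanned the arrays and deposited the tables of the Feature Extraction software (version 10.7.3.1), whose processed signal is a linear intensity after background subtraction, not normalized between arrays. A deposited table holds other values of the same scans, the processed intensity of 1 spot per probe, except that the column of treated replicate 4 gives the software's error of that intensity.

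Here, intensities of spots without outlier flags gave a mean per probe and a sum per miRNA. Control spots were not used, and saturation occurred on no spot. Each array was set to the same mean log2 signal over miRNAs detected throughout, raised to a floor of 2.08 (the median of the arrays' lowest detected signals) and taken as log2. Groups were compared with limma 3.58.1 in R 4.3.3, with Benjamini-Hochberg adjusted p below 0.01 over all miRNAs tested, and with exact 2-sided permutation tests over 35 assignments. Probes counted as detected where at least 0.5 of their spots were well above background. The steps were tested on simulated data with balanced rises and falls and every miRNA counted as detected. That test therefore cannot judge the choice of scaling or the filter.

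Named are the members, the star strands and, for each member, the 3 miRNAs with the highest Pearson's r over the arrays. Members and lists were chosen with earlier results of these data known. Alternatives covered scaling, signal column, floor, filter, probes, threshold and test, a block for the replicate number, and fits without 1 array. The number of arrays limits the precision. Human material, PCR and serum were not analysed here.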

Additional observations from a re-analysis of the deposited data

Results flagged for a closer look

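Non-treated replicate 3 lay far from the other 3 arrays of its label in 4 of 12 measures tested with Dixon's limit for 4 samples, of which chance passes 5%, and these measures are related to each other. Its scaled log2 signal of miR-29a was 10.6, against 11.12 to 11.20. Its scaled log2 signal of miR-29c was 8.74, against 8.89 to 8.91. Averaged over the 186 miRNAs that all arrays detected, its log2 signal was 6.65, against 7.40 to 7.52, and the mean log2 signal of 4 spike-in controls was 10.36, against 10.76 to 10.83. The part of this lower signal in the values of miR-29 was not tested. Without this array the log2 fold change was 0.12 for miR-29a, 1.09 for miR-29b and 1.43 for miR-29c, and the miR-29c over miR-29a ratio differed by 1.31 between the labels.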

How the results depend on the processing

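When 1 array was omitted at a time, the log2 fold change stayed between 1.43 and 1.53 for miR-29c, between 1.09 and 1.27 for miR-29b and between 0.12 and 0.34 for miR-29a, and the number of miRNAs called between 126 and 163. MiR-29b and miR-29c passed the threshold and miR-29a did not in each of these 7 fits. The replicate block gave 1.5 for miR-29c, 1.18 for miR-29b, 0.32 for miR-29a and 127 calls, and changed no call of a member; deviations of same-numbered arrays correlated at 0.08, -0.08 and 0.13, so the numbers were not taken as pairs. The ratios differed by 1.19, 0.87 and 0.32 under the block, as they did without non-treated replicate 2.

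Scaling moved the members most. Without scaling, miR-29a reversed to -0.88, and miR-29b at 0.019, miR-29c at 0.34 and miR-29c* at 0.25 no longer passed, while miR-29b-1* passed as lower at -1.22, with 8 miRNAs called higher and 167 lower. Of the probes, A_54_P2488 reversed to -0.93, A_54_P2489 to -0.86 and A_54_P1011 to -0.0066. With spike-in scaling, miR-29a was -0.68, and miR-29b at 0.22 and miR-29c at 0.53 no longer passed, while miR-29b-1* passed at -1.14, with 18 higher and 170 lower. With the mean of all miRNAs, miR-29a was -0.23, miR-29b 0.67, miR-29c 0.98 and miR-29b-1*, which passed, -0.69, and 37 miRNAs were higher. With the 75th percentile of all miRNAs, miR-29a passed at 0.53 and miR-29b-1* reversed to 0.070. With quantile normalization, miR-29a was -0.10 and miR-29b-1* 0.13. With normexp on median signals and an offset of 50, miR-29a was -0.28, miR-29b 0.54, miR-29c 0.82 and miR-29c* 0.39. MiR-29b-1* then passed as higher at 0.48, and 53 miRNAs were lower. With the deposited table, miR-29b at 1.03 no longer passed, miR-29b-1* was 1.42, and 61 miRNAs were called, 34 higher and 27 lower. Its column of treated replicate 4 holds error estimates, not signals. Without that column miR-29b passed at 1.29, miR-29b-1* was 0.69, and 94 were called, 48 of them lower. With Bonferroni adjustment 84 were called, 39 higher and 45 lower. The methods' t-test called 139 without adjustment and 126 after it. A higher floor of 5.85, added after seeing the data, called 130. Apart from the construction of each alternative, the cause of these shifts was not tested. MiR-29b-1* lies near background on the arrays labelled treated, which limits the size of its change.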
